A study of Bos taurus with 12 samples.

Results

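MTUS2 is the bovine gene on chromosome 12 whose deposited methylation sites are described here: 308 of the 216990 cytosines in the table lay in its introns, exons, promoter windows or 3′ untranslated region. A site was taken when the deposited annotation text names the gene as its host, and by the deposited symbol where the text names no gene. Whole blood was drawn from 12 cows of 1 farm, aged 3 to 8 years and kept under the same conditions. The 6 subfertile cows were culled within a year because of reproductive complications not recognised at sampling, and the 6 fertile cows were still in the herd without fertility issues. DNA was converted enzymatically and sequenced, and each value gives, for 1 cytosine of 1 cow, the share of calls that were methylated, in percent. No treatment, breed or relationship among the cows is given in the labels. The subfertile cows carry numbers that begin with 6 or 7 and the fertile cows numbers that begin with 3 or 4. What these numbers stand for is not given, so anything they mark cannot be told apart from the group. In the table the subfertile cows' columns start with F and the fertile cows' with R. Groups follow the labels here. Should the letters have been intended otherwise, all directions below would be the opposite.

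The protein encoded by MTUS2 belongs with its relative MTUS1 to a family of microtubule-associated proteins. In human cells it tracks the growing plus ends of microtubules, where it binds the end-binding protein EB1 (MAPRE1) and the depolymerising kinesin MCAK (KIF2C). Methylation of cytosines in CpG pairs is a lasting mark of DNA that is copied at cell division. At promoters it often goes with silencing, whereas the bodies of genes are commonly methylated. No expression was measured, and in whole blood a different level within cells cannot be told apart from a different mixture of cells.

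The deposited table holds only sites that differed between these groups, and MTUS2 was taken for its large number of them, so its sites were selected on the difference and q of the group contrast itself. The group differences are therefore a description and were not tested. In the authors' deposited table the smallest absolute difference of an MTUS2 site was 25.3 percentage points (position 31172116), and the largest q was 0.00863 (position 31355914). Over all sites of the authors' deposited table the smallest absolute difference was 25.003 points and the largest q 0.00999985, and sites beyond these bounds are not analysed here. The median absolute difference in the authors' deposited table was 41.6 points over the MTUS2 sites and 34.7 points over all sites. No read counts are held, so the depth behind a value is unknown.

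Across the gene, most sites were less methylated in the subfertile cows. The mean over all MTUS2 sites was 27.6, 5.69, 42.7, 16.0, 31.3 and 33.8% in subfertile cows 1 to 6, against 77.9, 67.5, 68.3, 63.1, 58.8 and 48.3% in fertile cows 1 to 6. Every subfertile cow lay below every fertile cow, and the closest pair was subfertile cow 3 and fertile cow 6. The group means were 26.2 ± 13.3% in subfertile and 64.0 ± 9.97% in fertile cows (SD, n = 6 each), as all means ± SD below are over 6 cows per group unless another n is given. Of the 308 sites, 290 had a lower mean in subfertile cows, beside 47.9% of all deposited sites, and 18 had a higher one.

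At 35 sites no cow of one group overlapped the other group, 34 of them lower and 1 higher in subfertile cows. Over all deposited sites 3.1% did not overlap, 1.16% with lower and 1.94% with higher levels in subfertile cows. Leaving out a cow can only keep or raise this count, and it was 98 without subfertile cow 6 and 70 without fertile cow 6.

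Subfertile cow 2 stood lowest, with 285 of its 308 values at 0. At least 4 subfertile cows were at 0 at 144 sites, and at least 4 fertile cows at 5 sites. These counts were not made over all deposited sites, and the sites were selected for the group difference, so they only describe the gene. The share of MTUS2 values under 20% ran from 25.8 to 93.8% (median 52.8%) in subfertile cows and from 0.993 to 21.5% (median 9.35%) in fertile cows. Over all deposited sites the same share ran from 22.6 to 26.1% in subfertile and from 22.4 to 24.4% in fertile cows. The mean over all deposited sites, which go in both directions, lay between 54.2 and 55.4% in subfertile and between 52.6 and 54.3% in fertile cows.

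**Figure D1:**
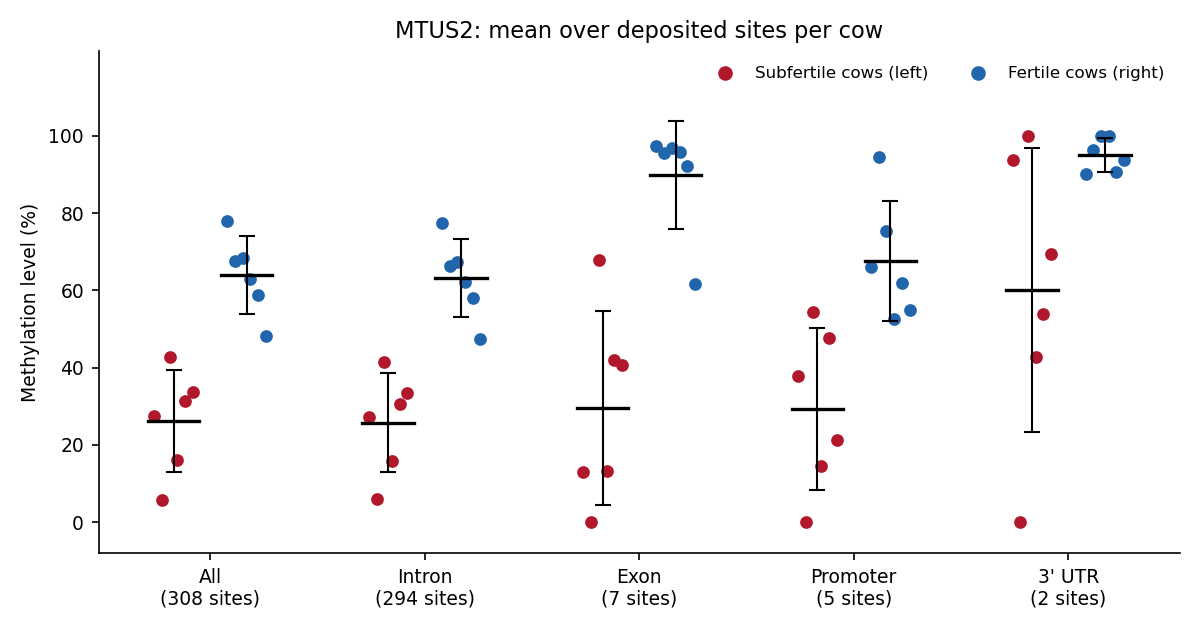
Methylation level in percent (vertical axis) of each cow, averaged over all MTUS2 sites and over its intron, exon, promoter and 3′ untranslated region sites. Points are cows, long bars the mean and error bars the SD of 6 cows; over all sites the subfertile cows (5.69 to 42.7%) lie below the fertile cows (48.3 to 77.9%).

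The gene runs on the minus strand, and the table lists 3 transcripts with a shared end at 31001535 (build ARS-UCD1.2, as are all positions). Their starts lie at 31388275 for ENSBTAT00000087296, at 31319753 for ENSBTAT00000063280 and at 31066280 for ENSBTAT00000001449. The deposited sites spanned 385 kb, from 31002423 to 31387228, so they covered nearly the whole of the longest transcript. Intron and exon numbers below are those of the transcript that the annotation names.

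Introns held 294 of the sites, and 276 of these were lower in subfertile cows (25.8 ± 12.8% against 63.1 ± 10.04% in fertile cows). The most sites, 137, lay in intron 4 of ENSBTAT00000063280, where 136 were lower and the mean was 13.6 ± 10.7% in subfertile and 56.1 ± 18.3% in fertile cows. Intron 7 of the same transcript held 65 sites, with 47.9 ± 27.7% in subfertile and 81.4 ± 10.3% in fertile cows. Intron 2 of ENSBTAT00000087296 held 34 sites, with 18.9 ± 10.7% and 54.9 ± 11.5%. Levels of the subfertile cows in intron 7 ran from 4.24 to 82.3% and so reached into the fertile range of 61.5 to 88.7%, whereas in intron 2 they ended at 36.9%, below the lowest fertile cow at 45.8%.

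Exon sites were few, 7 in all, and each was lower in subfertile cows. Their mean was 29.5 ± 25.1% in subfertile and 89.9 ± 13.95% in fertile cows. Exon 2 of ENSBTAT00000063280 held 4 of them between 31270419 and 31270781, with 0, 0, 49.2, 0, 41.6 and 36.6% in subfertile cows 1 to 6, against a lowest value of 54.9%, a median of 92.4% and a highest value of 98.1% in fertile cows. There, 3 subfertile cows were at 0 and 3 lay between 36.6 and 49.2%, while all fertile cows except cow 6 lay above 90%. The pair of sites in the 3′ untranslated region had 59.98 ± 36.8% in subfertile and 95.1 ± 4.41% in fertile cows, with subfertile cow 2 at 0 and subfertile cow 3 at 100%.

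The 5 sites in promoter windows all lay 1 to 3 kb inside the gene from an annotated start. Their common mean was 29.3 ± 20.9% for the subfertile and 67.6 ± 15.5% for the fertile group, with levels that overlapped between subfertile cow 3 (54.4%) and fertile cow 4 (52.7%). At 31387227 and 31387228, both strands of 1 CpG about 1 kb from the outermost start, the means were 53.4 ± 37.6% and 59.3 ± 36.8% in subfertile cows, against 88.1 ± 13.4% and 93.5 ± 7.67% in fertile cows. Subfertile cow 2 was at 0 on both strands, and subfertile cows 1 and 3 were as high as fertile cows.

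Near the start of the shortest transcript the promoter sites showed another order of cows. At 31063586 subfertile cows 1 to 6 had 0, 0, 41.7, 0, 61.5 and 0%, against 88.2, 100, 66.7, 60, 50 and 0% in fertile cows 1 to 6. Fertile cow 6 was at 0 there, as were 4 subfertile cows. The remaining site, at 31385790, was at 0 in all subfertile cows and averaged 27.7 ± 38.2% in fertile cows (n = 5), of which only cow 3 (63.6%) and cow 6 (75%) were above 0.

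**Figure D2:**
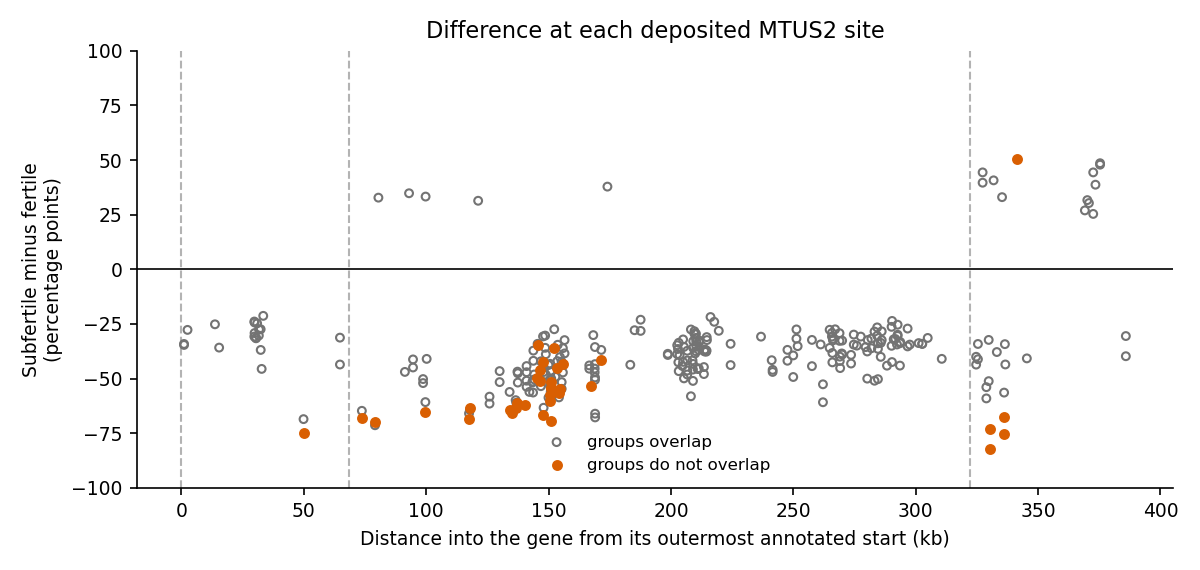
Difference in mean level, subfertile minus fertile, in percentage points at each of the 308 sites against the distance in kb from the outermost annotated start. Filled points are sites whose groups do not overlap, open points the others, and dashed lines mark the 3 annotated starts; 290 points lie below 0, and 13 of the 18 above 0 lie within the shortest transcript.

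The largest difference of a single site lay at 31058030 in intron 7 of ENSBTAT00000063280, where the level was 0, 0, 37.5, 0, 18.8 and 50% in subfertile cows 1 to 6, against 100% in each of the 5 fertile cows with a value. The opposite strand of that CpG, at 31058029, had 18.5 ± 20.6% in subfertile and 91.4 ± 12.1% in fertile cows. The site at 31052162 had 9.60 ± 10.7% in subfertile and 84.8 ± 10.8% in fertile cows, and the site at 31338393 had 16.2 ± 18.5% and 91.0 ± 14.7%. In each of these sites subfertile cows 1, 2 and 4 were at 0, and subfertile cows 3, 5 and 6 lay between 15.4 and 50%. At 31309192 the means were 20.3 ± 23.9% in subfertile and 91.7 ± 20.4% in fertile cows, and subfertile cow 5 (54.5%) passed fertile cow 6 (50%).

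Among the other sites without overlap, 31309191 on the opposite strand of that CpG had 22.1 ± 24.7% in subfertile and 92 ± 17.9% in fertile cows (n = 5). The exon 2 site at 31270781 had 26.8 ± 30.1% in subfertile and 95.2 ± 5.29% in fertile cows. Sites at 31237321, 31314565, 31052325, 31240416, 31253045 and 31288612 completed the 12 with the largest differences, with means between 7.47 and 22.4% in subfertile and between 75.1 and 90.1% in fertile cows. Subfertile cows 1 and 4 were at 0 at each of these 12 sites, and subfertile cow 2 at all except 31240416 (7.69%). Fertile cow 6 was the lowest fertile cow at all of them except 31052162 and 31058030, where it had no value.

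The 18 sites with higher levels in subfertile cows were not spread evenly, since 13 of them lay in the 64.7 kb of the shortest transcript, which held 32 sites. From 31012951 to 31019164, all 8 sites were higher, with 51.4 ± 24.0% in subfertile and 15.0 ± 12.5% in fertile cows. Averaged over these 8 sites, levels were 25, 90.3, 28.6, 58.0, 59.8 and 46.6% in subfertile cows 1 to 6. In fertile cows they ran from 8.65 to 40.4%, with only cow 3 above 11%. Subfertile cow 2, the lowest over the gene as a whole, was the highest in this average. At 31012951 and 31012952 it had 83.3 and 91.7%, below subfertile cows 1, 3, 4 and 5. The fertile means at these sites were 39.98 and 38.5%, so the average joins unlike sites.

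At 31012951, 31012952, 31046935 and 31060944 the pattern was another one. Subfertile cows 1 to 5 lay between 78.6 and 100% at these sites, subfertile cow 6 between 42.9 and 57.7%, and the fertile cows between 16.7 and 60%. At 31012951, 31012952 and 31060944 subfertile cow 6 lay within the fertile range. Only 31046935, with 86.0 ± 15.4% in subfertile and 35.8 ± 7.36% in fertile cows, separated the groups without overlap. The fifth of the largest positive differences, at 31015757, had 52.7 ± 34.1% in subfertile (n = 5) and 8.33 ± 20.4% in fertile cows, of which all but cow 3 were at 0.

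Sites were not independent of each other. Both strands of 111 CpG pairs were in the table, which made up 72.1% of the sites, and both strands had the same direction at all 111. The strands differed by a median of 5.56 points within a cow, and by at most 20 points in 84.5% of 1294 comparisons. Sites closer than 1 kb formed 81 runs, of which 26 held 1 site, and the 19 runs with at least 5 sites held 193 sites. They are numbered from the outermost start into the gene.

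All 19 runs had a lower mean in subfertile cows, beside 47.9% of the 6166 such runs in the whole table, and in 7 of them the groups did not overlap, beside 5.16% of all such runs. These were runs 2, 3, 5, 6, 7, 9 and 18, and neighbouring runs share cows and levels and are not separate results. In run 12, which held 22 sites of intron 4, the level was 0, 0, 43.3, 0, 39.8 and 0% in subfertile cows 1 to 6, against 90.5, 87.5, 45.6, 46.1, 39.8 and 0.350% in fertile cows 1 to 6. In this run 5 cows were near 0, 5 near 40 to 46% and 2 near 90%, with members of both groups on both the lowest and the middle level.

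**Figure D3:**
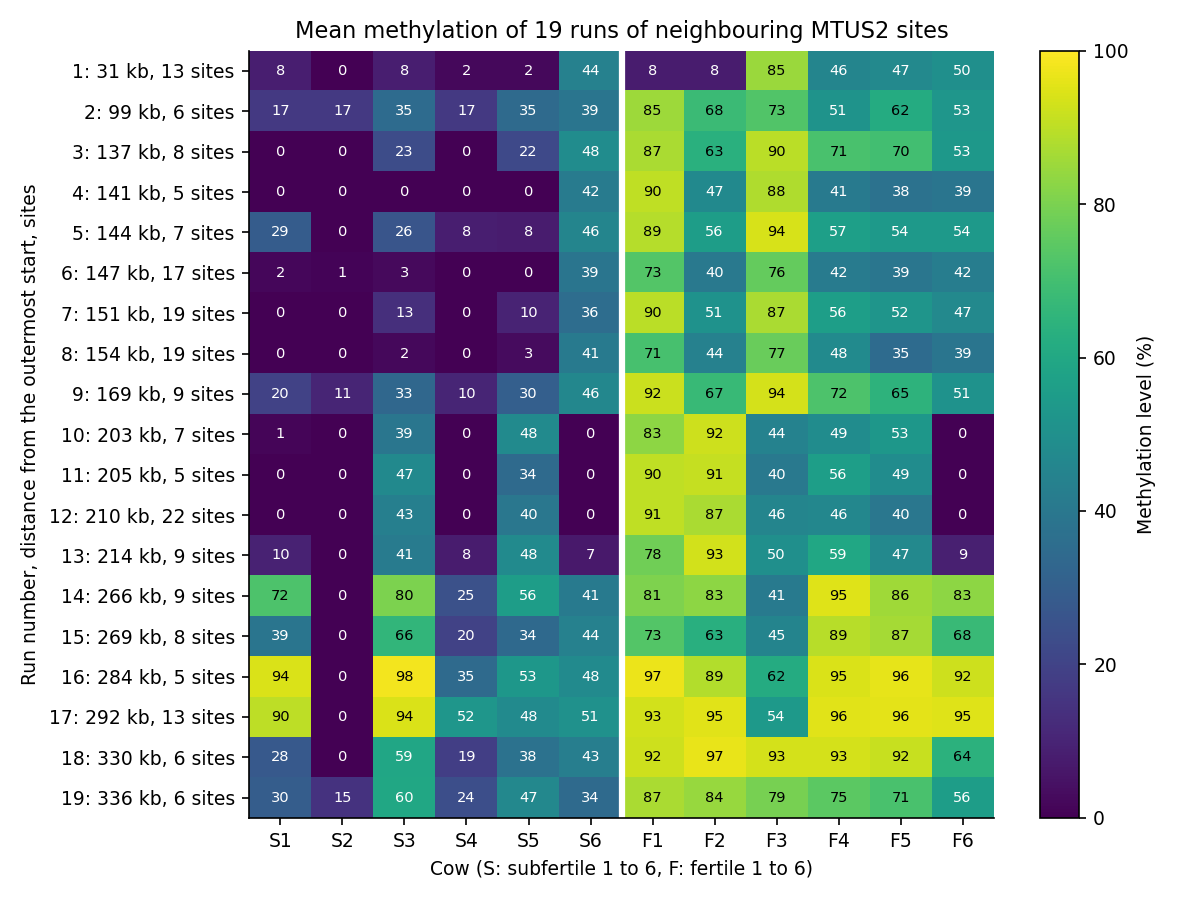
Mean methylation in percent (colour and printed values) of the 19 runs of at least 5 sites (rows, from the outermost start into the gene) in each cow (columns, subfertile S1 to S6 at left and fertile F1 to F6 at right). The order of cows stays alike over neighbouring rows and changes between blocks: S6 is near 40% in rows 3 to 9 and at 0 in rows 10 to 12.

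Neighbouring runs ranked the cows alike over long distances and then changed. The likeness was measured by Pearson's r of the cows' deviations from their group mean, as a description without a test, since runs share cows and reads. Of 18 pairs of neighbouring runs, 14 had an r of at least 0.80 and the other 4 had an r of 0.534 or less. Joining the runs with the higher values gave 5 stretches, a grouping made after the values were seen. Only neighbouring runs were joined, so runs farther apart can be alike and still lie in different stretches. Run 19 had an r between 0.830 and 0.855 with each of runs 10 to 13. Runs 14 to 17, which lie between them, had an r between 0.198 and 0.348 with runs 10 to 13. Over all 171 pairs of runs the median r was 0.327 and the lowest -0.584. A stretch counts only the sites of its runs, so sites of smaller runs within its span are left out.

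The stretch of runs 2 to 9 held 90 sites from 31219267 to 31289554. Its level was 5.60, 2.33, 13.7, 2.79, 10.8 and 40.9% in subfertile cows 1 to 6, against 82.4, 51.6, 83.6, 53.5, 49.0 and 45.9% in fertile cows 1 to 6. Subfertile cow 6 stood apart from the other subfertile cows and just under fertile cow 6, while fertile cows 1 and 3 stood above the other fertile cows. The groups did not overlap in the mean of these 90 sites, and 21 of them (23.3%) separated the groups, beside 3.1% of all deposited sites. Sites of smaller runs in this span are not counted here. Among them were the exon 2 sites, lower in subfertile cows, and 31267051, which was 31.4 points higher.

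Further into the gene, runs 10 to 13 held 43 sites from 31173578 to 31185720. Here the level was 2.26, 0, 42.7, 1.63, 42.2 and 1.43% in subfertile cows, against 86.6, 90.0, 45.7, 50.3, 44.5 and 1.99% in fertile cows. Subfertile cow 6 was now with the lowest cows, fertile cow 6 had joined them, and fertile cow 3, among the highest in the stretch before, was in the middle. At 0 of these 43 sites did the groups separate, beside 3.1% of all deposited sites.

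Runs 14 to 17 held 35 sites from 31094585 to 31123442. Subfertile cows 1 to 6 had 74.4, 0, 84.2, 35.3, 47.4 and 46.2% there, against 86.0, 83.9, 49.7, 93.9, 91.0 and 85.2% in fertile cows 1 to 6. Subfertile cows 1 and 3 lay within the range of the fertile cows, and fertile cow 3 lay just above the middle subfertile cows 5 and 6. Subfertile cow 2 was at 0 in each of these 4 runs.

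The stretch nearest the gene's end, runs 18 and 19, held 12 sites with 32.9 ± 18.04% in subfertile and 82.0 ± 11.5% in fertile cows. Of these sites 4 (33.3%) separated the groups, beside 3.1% of all deposited sites. Run 1, nearest the outermost start, held 13 sites with 8.33, 0, 8.33, 2.20, 2.08 and 44.0% in subfertile cows, against 7.69, 7.74, 84.9, 45.5, 47.0 and 49.9% in fertile cows. Fertile cows 1 and 2 were at the level of the low subfertile cows in this run.

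Genotype-like here means that some cow was below 10% while another was above 80%. This held for 261 of the 308 sites (84.7%), beside 69.9% of all deposited sites. No genotype was measured, so whether DNA variants move with these levels was not tested. The 47 other sites had means of 19.8 ± 5.42% in subfertile and 40.5 ± 8.70% in fertile cows, 39 of them lower in subfertile cows. Their subfertile range of 14.4 to 27.7% ended below the fertile range of 32.1 to 53.0%.

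Over single sites, likeness fell with distance. Among the 248 sites with a value in all 12 cows, the median r of deviations was 0.804 for 473 pairs within 1 kb and 0.790 for 2567 pairs 1 to 10 kb apart. It was 0.306 at 10 to 50 kb, 0.185 at 50 to 100 kb and 0.0437 at 100 to 400 kb. The genes FHIT, FBXL17, MYO5B and SDK1, which also hold many deposited sites, had medians between 0.661 and 0.874 within 1 kb and between -0.0830 and 0.0814 at 100 to 400 kb. MTUS2 lay within the range of these genes in both bins.

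**Figure D4:**
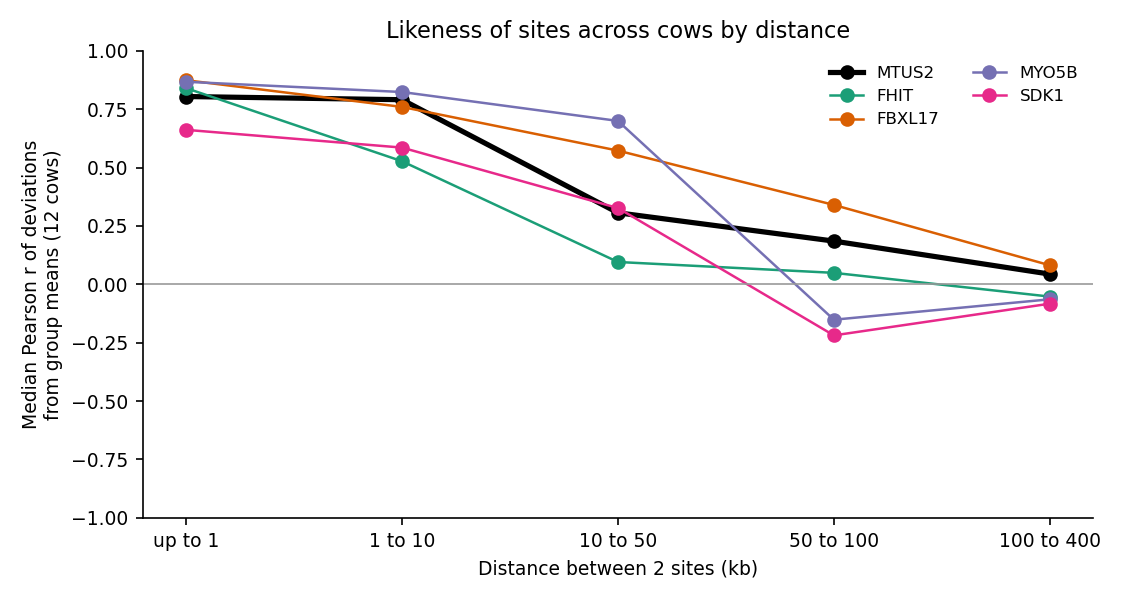
Median Pearson's r, over pairs of sites, of the deviations of 12 cows from their group mean (vertical axis) by distance between the sites in kb (horizontal axis, uneven bins), for MTUS2 and 4 other genes with many sites. The MTUS2 line starts at 0.804 and ends at 0.0437.

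The selection used the groups and not the order of cows within a group, so 4 relations within groups were tested by an exact permutation test, two-sided, over the 720 orders of 6 cows. In subfertile cows the mean of the 5 promoter sites was set against the mean of the other 303 sites (Pearson's r = 0.867, exact p = 0.0264, adjusted p = 0.106; Spearman's rho = 0.829, exact p = 0.0583, adjusted p = 0.233). This did not pass after Benjamini-Hochberg adjustment over the 4 relations, and r was 0.514 without subfertile cows 2 and 3, the farthest from the median. With sites within 1 kb merged it passed (r = 0.955, adjusted exact p = 0.0111), but over another set of promoter sites. Those at 31063586 and 31063587 merged with intron sites and left the promoter side. Only 31385790 and the CpG at 31387227 and 31387228 remained. As 31385790 was at 0 in all subfertile cows, their order on the promoter side came from that CpG alone. In fertile cows the same relation had r = 0.431 (exact p = 0.382, adjusted p = 0.611) and rho = 0.6 (exact p = 0.242, adjusted p = 0.322).

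The 154 sites nearest the outermost start were set against the 154 sites farthest from it. The relation had r = 0.369 in subfertile cows (exact p = 0.458, adjusted p = 0.611; rho = 0.6, exact p = 0.242, adjusted p = 0.322). It had r = 0.190 in fertile cows (exact p = 0.708, adjusted p = 0.708; rho = 0.429, exact p = 0.419, adjusted p = 0.419). None of the 4 relations passed at an adjusted p of 0.05. Without the 2 cows farthest from the median r was 0.870 in subfertile, 0.980 in fertile cows and, for the promoter relation in fertile cows, 0.706, each over 4 cows and with no p.

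The next gene at lower coordinates is SLC7A1, which encodes a cationic amino acid transporter. It held 40 sites, 38 of them higher in subfertile cows. Its level was 88.0, 87.9, 88.6, 89.2, 89.0 and 47.5% in subfertile cows 1 to 6, against 44.6, 44.7, 45.4, 42.1, 46.3 and 42.2% in fertile cows 1 to 6. Subfertile cows 1 to 5 lay within 2 points of each other, and subfertile cow 6 lay just above the fertile cows. UBL3, a gene of a membrane-anchored ubiquitin-like protein, held 9 sites with 84.8 ± 16.6% in subfertile and 49.7 ± 3.78% in fertile cows, and subfertile cow 6 (52.1%) again lay among the fertile cows.

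The first sites outside the gene on that side, at 30992842 and 30992843, were higher in subfertile cows by 47.7 and 40.6 points. Of the 10 MTUS2 sites nearest to them, from 31002423 to 31019164, 8 were also higher, so sites of both directions lay at this end of the gene. The other 2, at 31002423 and 31002424, were lower, with 62.7% and 57.3% in subfertile and 93.2% and 97.1% in fertile cows. Within 1 Mb of the outermost MTUS2 sites, 35.9% of 270 sites at lower coordinates and 87.8% of 74 sites at higher coordinates were lower in subfertile cows. The whole of chromosome 12 had 50.5%.

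At higher coordinates, upstream of the outermost start, the levels continued in the direction of the gene. The 10 distal intergenic sites whose nearest gene is MTUS2, from 31394934 to 31432984, had 82.9, 0, 82.9, 41.3, 41.3 and 37.2% in subfertile cows 1 to 6, against 83.3, 84.4, 85.4, 85.1, 84.1 and 85.3% in fertile cows 1 to 6. Subfertile cow 2 was at 0, subfertile cows 4, 5 and 6 lay near 40%, and subfertile cows 1 and 3 lay just below the fertile cows. FLT1, which encodes a receptor for vascular endothelial growth factors, held 28 sites with 54.7 ± 25.4% in subfertile and 88.2 ± 4.33% in fertile cows, and the same 3 tiers of subfertile cows (82.1, 17.7, 85.5, 47.1, 46.0 and 49.9%).

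**Figure D5:**
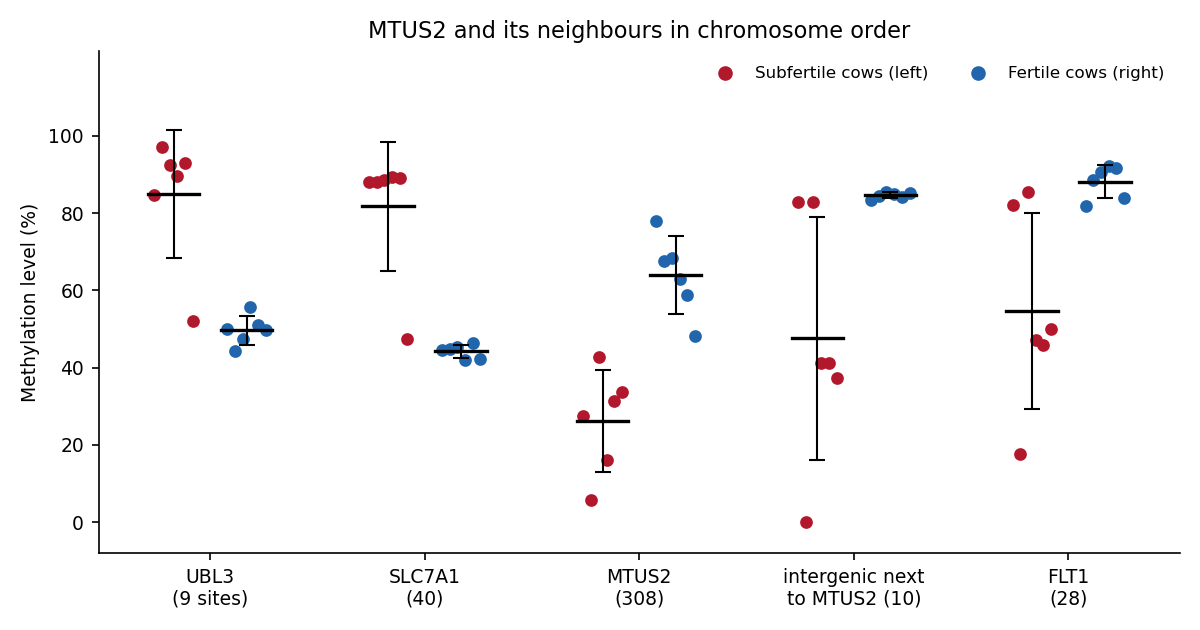
Methylation level in percent (vertical axis) of each cow for UBL3, SLC7A1, MTUS2, the 10 intergenic sites next to MTUS2 and FLT1, in the order of their coordinates. Points are cows, long bars means and error bars the SD of 6 cows; subfertile cows lie higher in UBL3 (84.8% on average) and SLC7A1 and lower in MTUS2 and FLT1 (54.7%).

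A list of 29 genes was drawn up around the microtubule plus end. It is wider than the genes of the plus end itself and also holds AURKA, AURKB and AGTR2. Of these 29, 15 had a site in a gene feature, among them AURKB with 1 site: 4 had a lower and 11 a higher mean in subfertile cows. Over all 7951 genes with a symbol and a mean in every cow, 48.1% were lower. The median difference was 8.09 points over the list and 1.70 points over those genes. The gene means of the groups overlapped in all 15 of these, and 3.38% of all genes did not overlap. MTUS1, MAPRE1 and KIF2C had no site among those analysed here.

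The listed genes with the most sites were NAV3 and NAV2, microtubule-binding navigator genes, the centrosomal CDK5RAP2 and PDE4DIP, and the spectraplakins DST and MACF1, which link microtubules to actin. NAV3 held 90 sites, 41 of them lower, with 60.4 ± 4.19% in subfertile and 57.7 ± 7.97% in fertile cows. CDK5RAP2 held 73 sites, 49 of them lower, with 46.4 ± 9.09% and 57.5 ± 6.22%. NAV2 held 54, DST 50, PDE4DIP 47 and MACF1 28 sites, of which 22, 9, 15 and 17 were lower. DST had the widest difference of these 6 genes, with 69.4 ± 14.7% in subfertile and 46.3 ± 25.996% in fertile cows.

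Beside the other genes with the most deposited sites, 94.2% of MTUS2 sites were lower in subfertile cows, against 81.9% in MYO5B, 56.6% in FHIT, 51.6% in SDK1 and 25.96% in FBXL17. Sites without overlap made up 11.4% in MTUS2, 9.22% in MYO5B, 8.42% in SDK1, 2.99% in FHIT and 2.65% in FBXL17. The SD of the gene mean among subfertile cows was 13.3 points in MTUS2, 12.5 in MYO5B, 9.24 in FBXL17, 4.52 in FHIT and 2.59 in SDK1. Among fertile cows it was 9.97 points in MTUS2, 11.1 in MYO5B, 16.6 in FBXL17, 2.01 in FHIT and 4.11 in SDK1. All these sites were selected for a difference between the groups, so the shares are a description, and their differences were not tested.

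Genes whose cows deviated most like those of MTUS2 were taken by Pearson's r of gene means over 12 cows, with the group means removed, among 1942 other genes with at least 10 sites. The highest values were 0.777 for TLL2 on chromosome 26, 0.777 for BBOF1 and 0.747 for ENTPD5 on chromosome 10, 0.752 for PTPRF on chromosome 3 and 0.737 for SCPEP1 on chromosome 19. None lay on chromosome 12. The sites of ENTPD5 (85353954 to 85378457) and BBOF1 (85385569 to 85408715) lie next to each other, so these genes are not separate results. The median over all 1942 genes was -0.0252 and the lowest value -0.828, so these 5 are the top of a wide range. Their directions differed: 21 of 23 TLL2 sites were lower in subfertile cows, and 0 of 15 BBOF1 sites were.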

How the data were processed

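Blood DNA of 12 cows (1 mL each, per the labels' protocols) was sequenced after enzymatic conversion, which does not tell methylated from hydroxymethylated cytosines. The submitters' processing notes name the build ARS-UCD1.2 and, with no order, ChIPseeker 1.32.1, DRAGEN, Bismark and fastp 0.23.1. For the test per site and the read minimum, the sources used here give nothing. Values in the deposited table are the percent methylated per cow and cytosine, with a p-value and a q-value by the authors, per the file headers. The authors' deposited difference, treated as a score in percentage points, and a signed distance to the nearest start are also given. Columns were matched to cows by the number in their title. No read counts are held, so no depth, interval or read-based test was possible.

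Per-cow means over sites, differences of unweighted group means, runs of sites (gaps up to 1 kb) and correlations were computed with Python 3.11.15, pandas 2.3.3 and numpy 2.4.6. The calls of overlap and the permutation test were tested on simulated data. Members and lists were chosen with earlier results of these data known. Named sites were the 5 promoter sites, the 5 largest differences in each direction and the 12 largest without overlap. Named genes were neighbours within 1 Mb, the 6 genes of the plus-end list with the most sites, MTUS1, and the 5 most alike genes. Cows are numbered in the order of their records, and they are separate animals. Alternatives left out cows or kinds of sites, merged sites or changed the scale (log2 of methylated over unmethylated percent, 5 points added to each).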

Additional observations from a re-analysis of the deposited data

Results flagged for a closer look

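In the gene mean, the promoter mean and the 19 run means, each group's 6 cows were searched for a highest or lowest cow whose gap to the next cow exceeded 0.625 of the group's range (Dixon's test). Chance flags about 1 in 20 groups of normally distributed values. Many of these means lay at or near 0, so that rate need not hold here. Of 42 groups 9 were flagged, but neighbouring runs share cows and levels and are not separate results. Subfertile cow 6 was the high cow in 5 runs: 44.0% in run 1 (next cow 8.33%), 41.7% in run 4 (next cow 0%), 38.9% in run 6 (next cow 2.68%), 35.8% in run 7 (next cow 13.4%) and 41.0% in run 8 (next cow 2.81%). Fertile cow 3 was the low cow in 3 runs, with 40.8% in run 14 (next cow 80.7%), 61.7% in run 16 (next cow 88.5%) and 53.7% in run 17 (next cow 93.2%). Fertile cow 6 was the low cow in run 18, with 64.2% (next cow 91.5%).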

How the results depend on the processing

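The difference of the gene mean (subfertile minus fertile, -37.8 points) kept its sign under every alternative run. It ranged from -41.1 to -33.7 points when 1 cow was left out, and it was -20.7 points without genotype-like sites and -52.9 points when averaged as log2 of methylated over unmethylated percent and turned back. The number of lower sites was 290 whichever cow was left out, but the selection of the sites fixed this. The smallest unweighted difference of a site was 21.3 points (31354855), too wide to be reversed by leaving out 1 cow. The sign of the gene mean difference with 1 cow left out was fixed likewise. Lower sites numbered 182 of 197 with both strands merged, 71 of 81 with sites within 1 kb merged and 39 of 47 without genotype-like sites, where fewer sites are counted. Sites without overlap numbered 35 to 98 when 1 cow was left out, 98 without subfertile cow 6 and 70 without fertile cow 6. Leaving out a cow cannot lower this number, by the way overlap is defined. They numbered 23 with strands merged, 13 with sites within 1 kb merged and 6 without genotype-like sites.

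The within-group relations were unstable over so few cows. With sites within 1 kb merged, the promoter relation had r = 0.955 in subfertile cows (exact p adjusted over the 4 relations 0.0111) and -0.320 in fertile cows. The promoter sites at 31063586 and 31063587 had then merged with intron sites and were not on the promoter side. The relation of the sites nearest to those farthest from the start had r = -0.0882 in fertile cows with this merging. Without genotype-like sites the near and far sites had r = -0.533 in subfertile cows, and the promoter relation could not be computed. Without the 2 cows farthest from the median, r was 0.514 and 0.706 for the promoter relation and 0.870 and 0.980 for the near and far sites, in subfertile and fertile cows. Run 19 had a difference of 33.0 points without genotype-like sites, where 1 site is left. The causes were not tested. No paired analysis was possible because the labels give no replicate numbers that the groups share. Depth could not be weighed, since no read counts are held.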

Other observations

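Other neighbours of MTUS2 on chromosome 12 held few sites. ALOX5AP, whose product takes part in leukotriene synthesis, held 22 sites, 18 of them higher, with 52.8 ± 15.7% in subfertile and 32.2 ± 10.9% in fertile cows (SD, n = 6 each). KATNAL1, a gene of the microtubule-severing katanin family, held 7 sites with 87.4 ± 6.91% in subfertile and 66.4 ± 18.6% in fertile cows. POMP, a proteasome assembly gene, held 3 sites with 42.1 ± 36.3% and 76.3 ± 17.7%, and FLT3, a receptor of blood progenitor cells, held 4 sites with 35.1 ± 15.9% and 66.6 ± 18.8%. URAD was at 0 in all subfertile cows and averaged 26.7 ± 28.0% in fertile cows over 2 sites.

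Deposited sites were dense in the gene. MTUS2 held 80.04 sites per 100 kb of its span, and chromosome 12 held 10.2 per 100 kb. The gene was taken for its large number of sites, so a high density goes with that choice. Other genes with many sites held 282 over 307 kb (MYO5B), 339 over 493 kb (FBXL17), 401 over 761 kb (FHIT) and 273 over 606 kb (SDK1), beside 308 over 385 kb in MTUS2. The window from 31.2 to 31.3 Mb held 117 sites, the highest number of any 100 kb window of the chromosome, with 113 of them lower in subfertile cows, and the window from 31.1 to 31.2 Mb held 111, all of them lower.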
